A study of Mus musculus with 11 samples.

Results

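The genes described here are 41 genes of the cell division cycle, measured in myeloid cells that had infiltrated irradiated mouse tumours. They were chosen by symbol from the 22068 gene symbols in the files, by a rule that uses no measured value, but with earlier results of these data known. Of the 41, 20 act mainly in the copying of DNA (replication genes) and 21 mainly in mitosis (mitotic genes). RNA was sequenced from CD11b-positive cells of tumours implanted under the skin, 4 days after the tumour had received 15 Gy of local radiation. All mice had a C57BL/6 background and all tumours were irradiated, so no unirradiated group enters these comparisons. The hosts were wild type (WT, 3 libraries), TLR9-/- (TLR9KO, 4 libraries) or STAT3-/- (STAT3KO, 4 libraries). The STAT3-/- mice are labelled MxCre/Stat3flox: Cre recombinase under the interferon-inducible Mx promoter removes the floxed part of Stat3, and this promoter is not restricted to myeloid cells. The sources used here do not give how Cre was induced, or the tumour line. The labels do not say whether replicates were separate animals, and p-values then measure only the spread between these libraries, which may be technical.

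Cells that commit to division switch on genes for DNA synthesis late in G1 and in S phase, and then genes for chromosome segregation in G2 and mitosis. E2F transcription factors, released when cyclin-dependent kinases phosphorylate the retinoblastoma protein, drive many of the former. The latter are driven largely by the B-Myb, MuvB and FoxM1 proteins and by NF-Y, through the cell cycle homology region (CHR) and the CCAAT box. Most mature macrophages and neutrophils do not divide, while their precursors and some tissue macrophages do. Ionising radiation stops dividing cells through p53 and its target Cdkn1a.

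The promoters of the replication and mitotic genes were compared first, since promoter letters played no part in the choice of the genes. RefSeq promoter windows of 300 bases (250 before to 50 after a transcription start, assembly GRCm38.p6) were found for 16 of the 20 replication genes and 17 of the 21 mitotic genes. No window was found for Ccne2, Mcm4, Gins1, Gins2, Ccna2, Aurkb, Kif20a and Tpx2. The E2F search took 4 forms on either strand, of which the first is TTCCCGC while another is TTCGCGC, and the remaining forms are TTGCCGC along with TTGGCGC. E2F letters were in 10 of 16 replication genes (62.5%) and 3 of 17 mitotic genes (17.6%), against 10.9% of the 27025 genes with a window. The CHR letters TTTGAA were in 2 replication genes (12.5%) and 12 mitotic genes (70.6%), against 20.2% of all genes. The CCAAT letters were in 9 replication genes (56.2%) and 15 mitotic genes (88.2%), against 41.1% of all genes. CHR and CCAAT letters stood in the same window in 12 of 17 mitotic genes, 1 of 16 replication genes and 7.97% of all genes. On the strand of the gene alone these were 7 of 17 (41.2%), 0 of 16 and 2.52%. A match shows letters, not a bound factor.

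Windows of 2 genes of each class show these letters in place, in capitals. They were picked by the smallest p in the expression tests below, among genes whose window held E2F letters (replication) or CHR and CCAAT letters (mitotic). They are Cdt1 (chr8:122567765-122568064, plus strand) and Mcm6 (chr1:128359656-128359955, minus strand), with E2F letters in capitals, and Kif23 (chr9:61946750-61947049, minus strand) and Mki67 (chr7:135716330-135716629, minus strand), with CHR and CCAAT letters in capitals. Sequences are from RefSeq and read 5′ to 3′ on the strand of the gene, and capitals include matches to the reverse complement. In Mcm6, E2F letters of both strands overlap at 2 places. CCAAT letters in Mcm6 and E2F letters in Mki67 were also found and are not in capitals. The windows of Pcna, Tyms and Tk1, which rose in STAT3KO below, held no E2F letters.
Cdt1: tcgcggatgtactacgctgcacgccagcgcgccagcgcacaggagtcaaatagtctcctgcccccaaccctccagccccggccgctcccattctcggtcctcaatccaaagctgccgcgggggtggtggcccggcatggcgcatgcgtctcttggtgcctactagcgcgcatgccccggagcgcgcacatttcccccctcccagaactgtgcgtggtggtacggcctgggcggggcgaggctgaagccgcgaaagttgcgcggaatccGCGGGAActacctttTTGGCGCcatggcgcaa
Mcm6: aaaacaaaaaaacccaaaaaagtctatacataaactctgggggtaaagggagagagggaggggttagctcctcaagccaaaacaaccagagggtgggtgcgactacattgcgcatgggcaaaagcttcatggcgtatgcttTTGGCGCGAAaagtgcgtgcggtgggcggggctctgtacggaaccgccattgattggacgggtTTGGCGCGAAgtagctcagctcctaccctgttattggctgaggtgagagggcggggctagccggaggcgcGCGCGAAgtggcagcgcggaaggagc
Kif23: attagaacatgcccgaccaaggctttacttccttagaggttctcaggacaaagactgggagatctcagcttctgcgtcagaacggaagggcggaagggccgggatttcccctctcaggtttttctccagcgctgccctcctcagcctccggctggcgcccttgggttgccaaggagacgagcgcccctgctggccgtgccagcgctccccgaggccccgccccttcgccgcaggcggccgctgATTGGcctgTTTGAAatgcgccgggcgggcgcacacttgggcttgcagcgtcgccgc
Mki67: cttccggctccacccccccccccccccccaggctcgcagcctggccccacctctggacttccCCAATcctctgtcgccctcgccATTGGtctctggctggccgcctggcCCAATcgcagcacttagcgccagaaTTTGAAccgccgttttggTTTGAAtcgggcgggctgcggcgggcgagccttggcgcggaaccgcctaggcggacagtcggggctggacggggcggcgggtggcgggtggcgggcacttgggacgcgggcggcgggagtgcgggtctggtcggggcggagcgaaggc

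**Figure D1:**
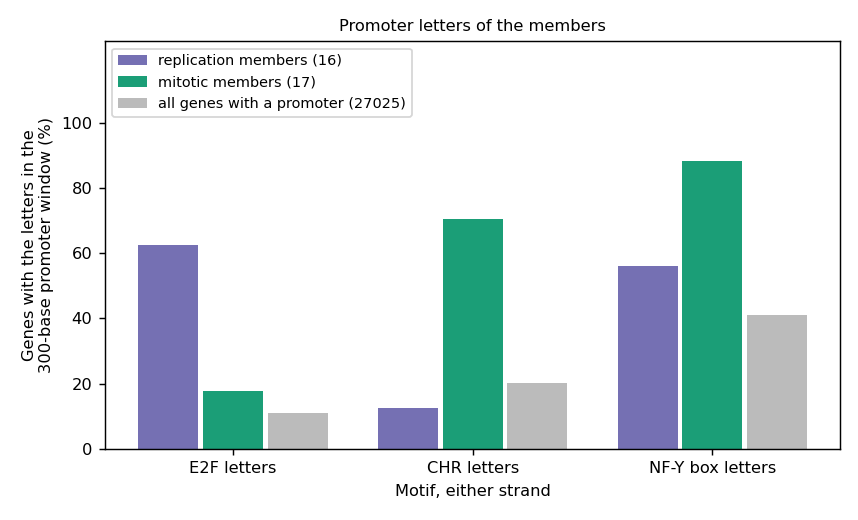
Share of genes (vertical axis, percent) with E2F, CHR or NF-Y box (CCAAT) letters in the 300-base promoter window, for the replication genes, the mitotic genes and all genes with a window. E2F letters were in 62.5% of replication and 17.6% of mitotic genes, and CHR letters in 12.5% and 70.6%.

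Levels are in RPKM, reads per kilobase of transcript scaled to library size, as deposited. Steps in the values of microRNA genes gave depths of 30.00 M to 53.45 M reads per library. The targeted genes matched the labels: Stat3 stood at 18.2 ± 1.85 RPKM in STAT3KO (SD, n = 4) against 73.1 ± 2.78 in WT (SD, n = 3), and Tlr9 at 5.77 ± 1.72 in TLR9KO (SD, n = 4) against 30.3 ± 10.6 in WT. Itgam, which encodes CD11b, lay between 177 and 328 RPKM. The summed RPKM of 10 macrophage markers lay between 4583 and 11832. Of the 10, 7 rose and 1 fell in STAT3KO against WT, by the limma test used below. In that test 29.2% of all genes rose and 14.8% fell in STAT3KO, and 20% rose and 10.6% fell in TLR9KO. Fibroblast markers summed to 2.22 to 4.55 in WT, 11.7 to 43.3 in TLR9KO and 15.6 to 31.03 in STAT3KO, and all 4 tested rose in both knockouts, while Pdgfra, Dcn and Lum were below 1 RPKM throughout. Inflammatory monocyte markers summed to 359 to 664 in WT, 652 to 1283 in TLR9KO and 840 to 2768 in STAT3KO, and dendritic cell markers to 148 to 224, 83.9 to 163 and 34.2 to 73.2, with Xcr1 and Siglech below 1 RPKM throughout. Both sums separated STAT3KO from WT without overlap. By gene, 2 of 7 monocyte markers rose and 1 fell in that comparison, and of 4 tested dendritic markers 0 rose and 1 fell. Group means in WT and STAT3KO were 201 and 931 RPKM for Ly6c2, and 51.8 and 45.5 for Ccr2. The largest dendritic term, Itgax, stood at 169 and 37.4 RPKM, and Batf3 at 11.41 and 11.85. Erythroid and platelet markers summed to 169.7 to 603 in WT, 156 to 781 in TLR9KO and 618 to 1033 in STAT3KO, while 4 of the 7 tested fell in each knockout against WT and 1 rose in STAT3KO. The epithelial marker sum, with Epcam and 4 keratins below 1 RPKM throughout, was 15.03 to 25.7 in WT, 3.33 to 11.2 in TLR9KO and 0.8 to 1.12 in STAT3KO. T and NK cell markers summed to 12.2 to 57.9 in WT, 4.96 to 33.6 in TLR9KO and 6.47 to 42.2 in STAT3KO. The sum of 10 melanocyte markers was high throughout, at 781 to 2620 RPKM, with Gpnmb its largest term (256 to 1262). Of the 10, 0 passed the test against WT in either knockout (1 in each at an unadjusted p under 0.05 in limma). In STAT3KO against TLR9KO 1 of the 10 rose (10%, against 13.4% of all genes). Gpnmb lay between 256 and 569 RPKM in TLR9KO and between 643 and 1262 in STAT3KO. The part of these markers in the results below was not tested. In such bulk libraries, a change in the number of dividing cells of any type and a change in RNA per cell cannot be told apart.

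All 41 genes had a value above 0 in every library. Averaged over the 11 libraries, Pcna was highest at 119 RPKM and Cenpf lowest at 0.659. The median of these means was 17.1 RPKM for the replication genes and 10.3 for the mitotic genes. The MCM subunits ranged from 13.9 (Mcm4) to 36.3 RPKM (Mcm6), and the most abundant mitotic gene was Birc5, at 21.1. Ccne2 (0.885 RPKM) and Cenpf fell under the filter of a mean of 1 RPKM and were not in the main test, which left 39 genes. Ttk, at 1.37, was the lowest tested member.

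The genes moved together from library to library within groups. WT 3 was the lowest WT library for 40 of 41 genes, and TLR9KO 1 the lowest TLR9KO library for 40 of 41. STAT3KO 2 was the highest STAT3KO library for 34 of 41. The mean of log2(RPKM + 1) over the 20 replication genes was 4.07, 3.92 and 3.63 in WT, 3.48, 4.00, 3.86 and 3.95 in TLR9KO, and 3.945, 4.29, 3.88 and 4.12 in STAT3KO, in order of replicate number. Over the 21 mitotic genes it was 3.06, 3.07 and 2.43 in WT, 2.43, 3.10, 3.02 and 2.95 in TLR9KO, and 3.13, 3.40, 2.98 and 3.14 in STAT3KO. The groups overlapped on both means, and the mean over the 10557 tested genes varied from 3.59 to 3.71.

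**Figure D2:**
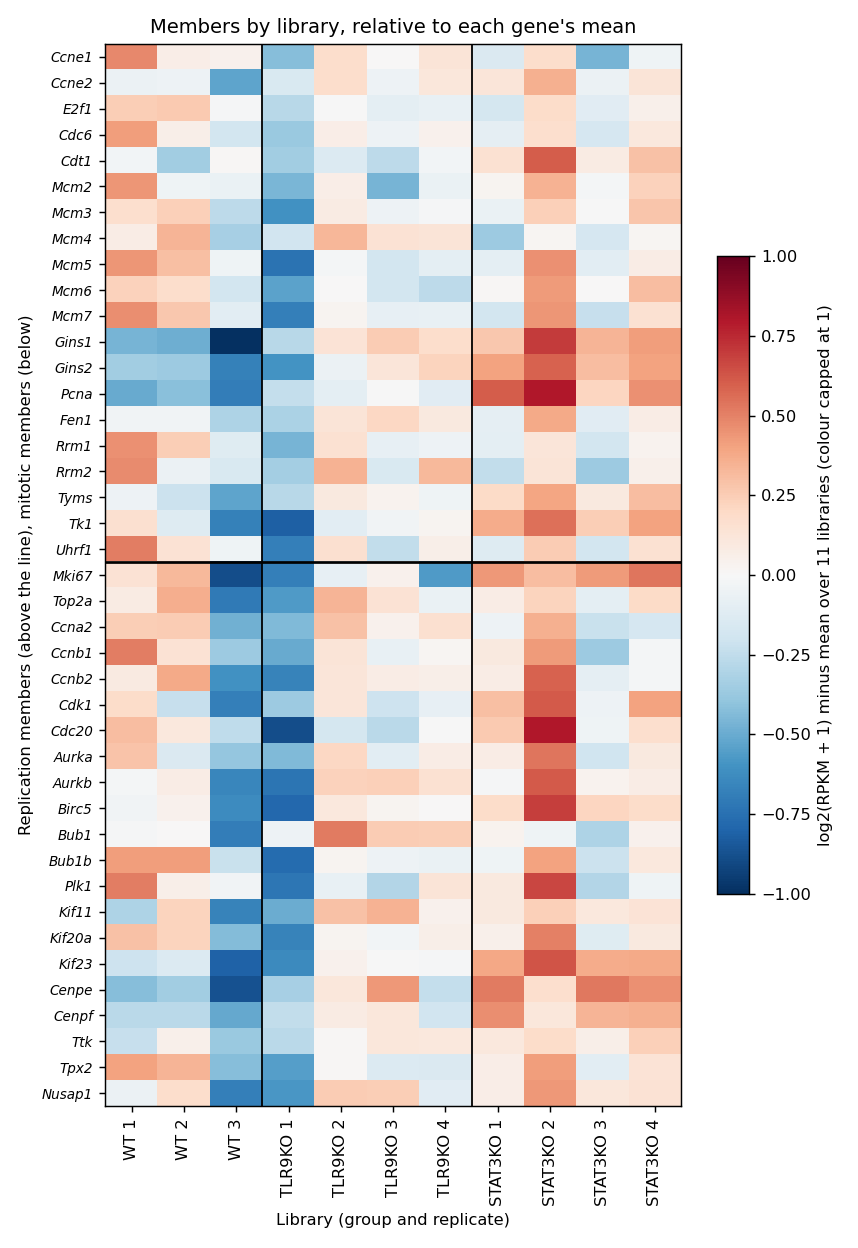
log2(RPKM + 1) of each of the 41 genes (rows) in each of the 11 libraries (columns), minus the gene's mean over the libraries, as colour. WT 3 and TLR9KO 1 were the lowest of their groups for 40 of 41 genes, and Gins1, Gins2 and Pcna were higher in every STAT3KO library than in every WT library.

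These libraries also stood apart in markers of other cells. STAT3KO 2 had 143 RPKM summed over 12 markers of granulocyte and monocyte precursors, against 3.56 to 15.3 in the other 10 libraries. Most of this came from secondary granule genes (Ngp 94.96, Camp 21.9 and Ltf 20.2 RPKM), while Elane, Mpo, Ctsg, Ms4a3 and Cd34 were below 1 RPKM in every library. Its neutrophil markers summed to 464, against 67.7 to 155 elsewhere. Most of this was S100a8 (194 RPKM), S100a9 (149.8) and Retnlg (67.6), while Csf3r was at its lowest of the 11 libraries (12.98). WT 3 and TLR9KO 1 were each the lowest of their group for macrophage markers (4583 and 5033) and dendritic cell markers (148 and 83.9). They were each the highest of their group for endothelial markers (22.1 and 15.3), mostly Pecam1 (18.7 and 8.51 RPKM). Kdr stood at 2.7 and 5.83 RPKM and Cdh5 at 0.61 and 0.8, while Tek, Cldn5 and Emcn were below 1 RPKM in every library. WT 3 and TLR9KO 1 were also each the highest of their group for the sum of erythroid and platelet markers (603 and 781). In TLR9KO 1 most of the latter was the platelet gene Pf4 (716 RPKM), with the haemoglobin gene Hba-a1 at 0.51. In WT 3 Pf4 stood at 322 RPKM and Hba-a1 at 82.5. WT 3 had the highest T and NK cell sum (57.9) and TLR9KO 1 the lowest (4.96), while TLR9KO 1 had the highest fibroblast sum (43.3). Melanocyte marker sums were 2119 in WT 3 and 1686 in TLR9KO 1, and were lowest in WT 2 (947) and TLR9KO 3 (781). The part of these markers in the levels of the cell cycle genes was not tested.

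Group means of the replication genes were 3.87 ± 0.23 in WT, 3.82 ± 0.23 in TLR9KO and 4.06 ± 0.18 in STAT3KO (SD). Those of the mitotic genes were 2.86 ± 0.37, 2.87 ± 0.30 and 3.16 ± 0.17. STAT3KO was above WT by 0.18 for replication and 0.31 for mitosis, with no test made of these means. The mean over all tested genes was also higher in STAT3KO than in WT, by 0.10. With median-ratio scaling the replication and mitotic differences were 0.08 and 0.21. On the values as deposited, they were 0.06 and 0.09 without WT 3, and 0.11 and 0.23 without STAT3KO 2. The replication mean minus the mitotic mean was 1.02 ± 0.17 in WT, 0.95 ± 0.09 in TLR9KO and 0.89 ± 0.07 in STAT3KO, with overlap between the groups.

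**Figure D3:**
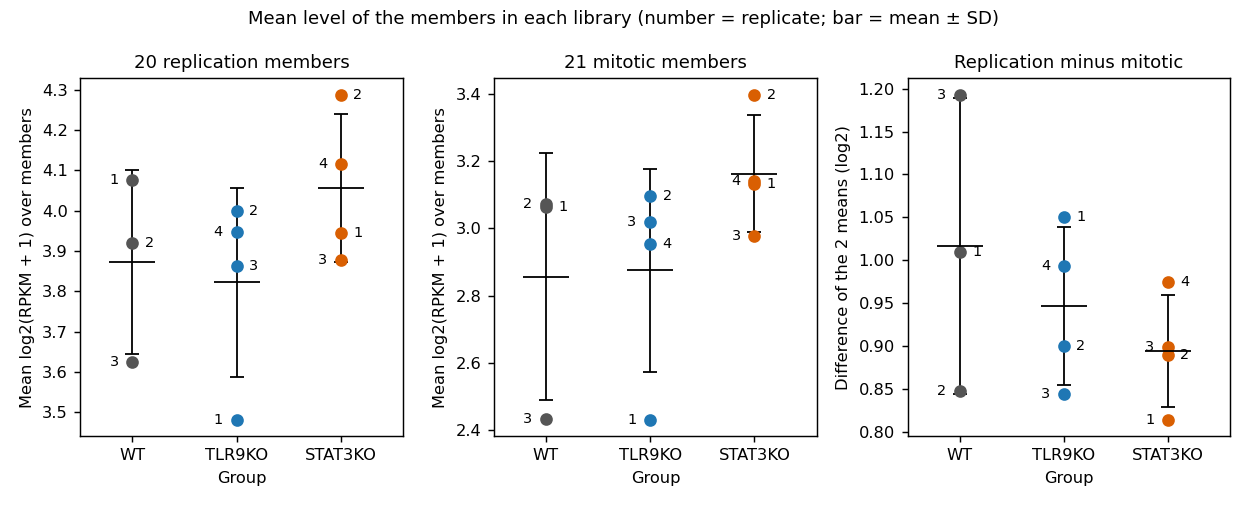
Mean log2(RPKM + 1) over the 20 replication genes, over the 21 mitotic genes, and their difference, for each library by group, with the replicate number beside each point and group mean ± SD. WT 3 and TLR9KO 1 lie lowest in their groups on both means and STAT3KO 2 highest in its own, and the groups overlap.

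Single genes were tested with limma on log2(RPKM + 1), adjusted by Benjamini-Hochberg over the 10557 genes, with a threshold of 0.05. In STAT3KO against WT, 9 of the 39 tested members rose (23.1%), 0 fell and 30 did not pass, with 11 at an unadjusted p under 0.05. Of all tested genes 29.2% rose and 14.8% fell in this comparison, so the share of members that rose is near the background. The risers were 6 of 19 replication genes (Pcna, Gins1, Gins2, Tk1, Tyms and Cdt1) and 3 of 20 mitotic genes (Cenpe, Kif23 and Cdk1). The median log2 difference was 0.04 for the replication genes and 0.23 for the mitotic genes, against 0.09 for all genes. In 10 members the libraries of the groups did not overlap (25.6%, against 47.7% of all genes). The count of risers was 6 without STAT3KO 2 or STAT3KO 4. With array weights 12 rose and Ccne1 fell (-0.42, limma adjusted p = 0.0356).

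In TLR9KO against WT, 2 of 39 members rose (5.13%), Gins1 and Pcna, and 0 fell, with 7 at an unadjusted p under 0.05 in limma. Of all genes 20% rose and 10.6% fell. Of the 20 mitotic genes 0 passed, with 2 at an unadjusted p under 0.05 in limma, Bub1 and Cenpe. The median difference was -0.17 for replication and 0.03 for mitotic genes, against 0.04 for all genes. Libraries did not overlap in 3 members (7.69%, against 36.1% of all genes). The count of members called was 5 without TLR9KO 1, 4 without WT 2, 1 without WT 1 or TLR9KO 2, 3 or 4, and 0 with a correction for GC content and length. Members fell in 2 settings: E2f1 with median-ratio scaling (-0.34, limma adjusted p = 0.0391), and E2f1 and Tpx2 without WT 3 (-0.37, 0.0494, and -0.58, 0.0365), where 1 member rose.

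In STAT3KO against TLR9KO, 7 of 39 members rose (17.9%) and 0 fell, with 14 at an unadjusted p under 0.05 in limma. Of all genes 13.4% rose and 9.46% fell. The risers were Cdt1, Mcm6, Gins2, Pcna, Tk1, Kif23 and Mki67. The median difference was 0.26 for replication genes and 0.26 for mitotic genes, against 0.06 for all genes, and libraries did not overlap in 8 members (20.5%, against 27% of all genes). The count was 1 without TLR9KO 1 or STAT3KO 4, 2 without STAT3KO 1 or 2, 3 without TLR9KO 4, and 4 without TLR9KO 2 or STAT3KO 3. The 3 comparisons share libraries, so their calls are not independent. Over them, 11 members were called at least once and 28 in none.

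**Figure D4:**
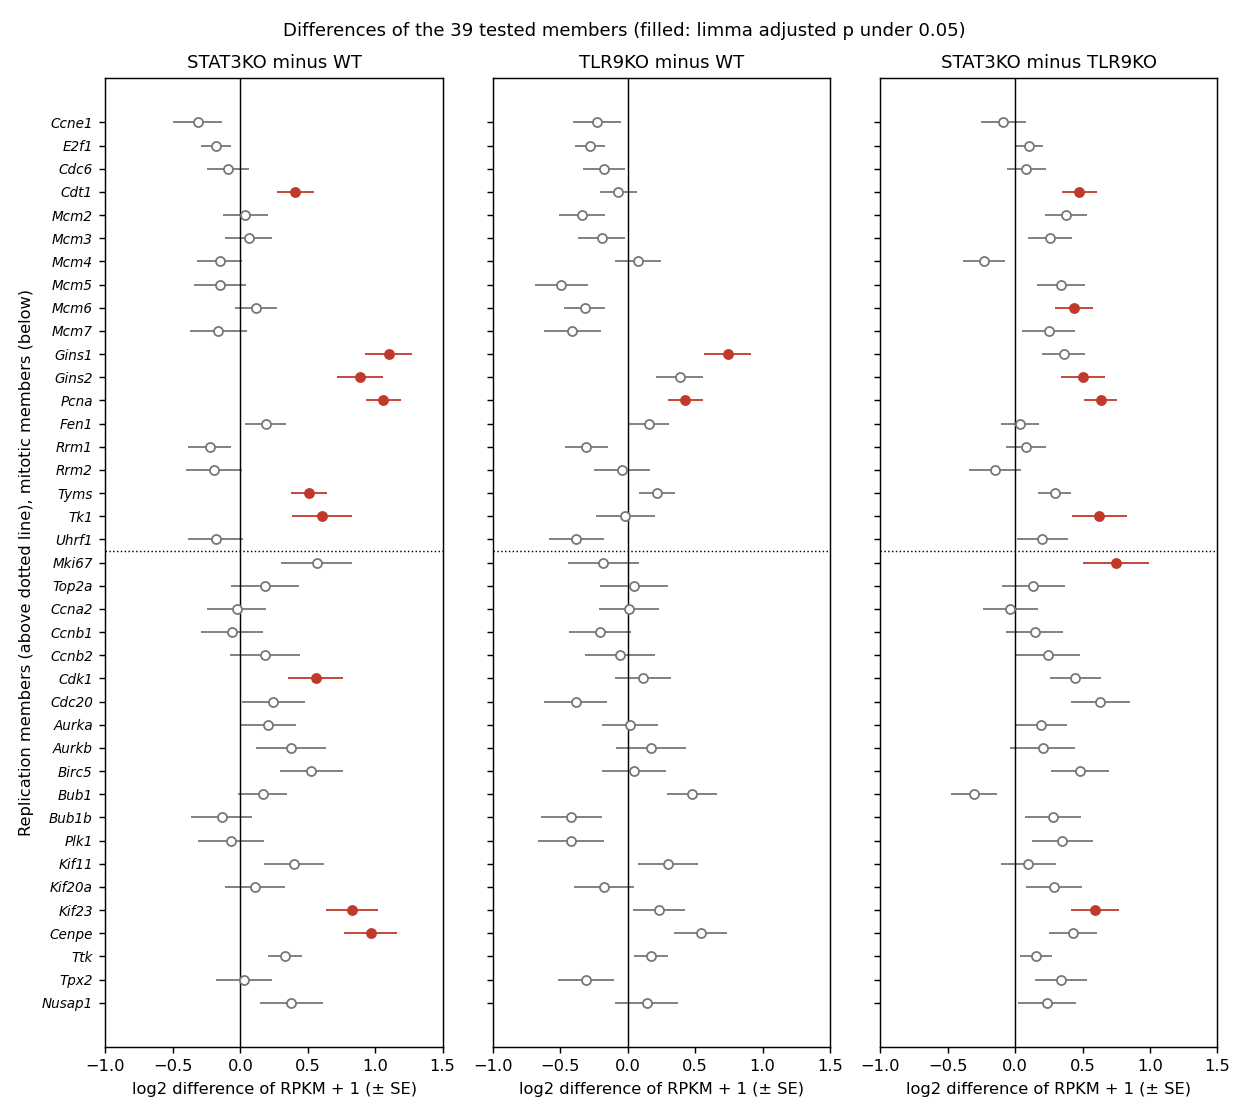
log2 difference of RPKM + 1 (points ± SE) for the 39 tested genes in the 3 comparisons. Passing limma's adjusted p of 0.05 were 9 genes in STAT3KO minus WT, 2 in TLR9KO minus WT and 7 in STAT3KO minus TLR9KO, all with a difference above 0.

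Of the genes that start S phase, Cdt1 was the one that passed a test. Cdt1, which loads the MCM helicase onto origins together with Cdc6, stood at 16.9, 13.3 and 17.4 RPKM in WT, 13.4, 15.7, 14.3 and 16.9 in TLR9KO, and 19.4, 26.9, 18.4 and 21.4 in STAT3KO. Every STAT3KO library was above every other library. The log2 difference was 0.41 ± 0.14 (SE) from WT (limma adjusted p = 0.0333) and 0.48 ± 0.13 from TLR9KO (0.0225). The call against WT was lost without WT 1 (0.0516), WT 2 (0.127), STAT3KO 2 (0.0708) or STAT3KO 4 (0.065), and the call against TLR9KO without TLR9KO 1 (0.0501) or STAT3KO 4 (0.0531). With the replicate number as a block neither call held (0.0889 and 0.0506), and the call against WT was also lost with median-ratio scaling (0.107), no filter (0.0533) and the 2 groups alone (0.0552). Ccne1 (cyclin E1, which activates Cdk2), the transcription factor E2f1 and Cdc6 did not pass in any comparison. Their group means in WT, TLR9KO and STAT3KO were 9.83, 8.27 and 7.71 RPKM for Ccne1, 19.6, 15.9 and 17.2 for E2f1, and 2.61, 2.18 and 2.35 for Cdc6. Ccne2, the second cyclin E, lay between 0.29 and 1.38 RPKM and did not pass when tested without the filter (limma adjusted p = 0.0931 in STAT3KO against WT).

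The replicative helicase joins the MCM ring with Cdc45 and the GINS complex. Of the 6 MCM subunits 0 passed in STAT3KO and 0 in TLR9KO against WT (0 and 1 at an unadjusted p under 0.05 in limma), with differences of -0.16 to 0.11 and -0.49 to 0.08. Mcm2 stood at 33.2, 23.6 and 23.1 RPKM in WT, 17.4, 25.4, 17.3 and 23.1 in TLR9KO, and 24.7, 31.2, 23.9 and 28.6 in STAT3KO, and the 3 groups overlapped. Mcm6 stood at 42.1, 40.6 and 31.2 RPKM in WT, 24.3, 35.8, 31.3 and 29.6 in TLR9KO, and 36.1, 48.4, 35.8 and 44.5 in STAT3KO. Its STAT3KO libraries overlapped both other groups. The difference of 0.44 ± 0.14 between STAT3KO and TLR9KO was the only MCM call, with a limma adjusted p of 0.0497. It was lost without TLR9KO 1, 3 or 4 (0.11, 0.0661 and 0.104) or STAT3KO 1, 2 or 4 (0.0577, 0.125 and 0.12), and in 6 of 7 other settings (0.0504 to 0.0793), all but the replicate block.

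The GINS subunits were higher in STAT3KO than in WT. Gins1 stood at 2.98, 2.91 and 1.65 RPKM in WT, 3.54, 5.03, 5.54 and 5.21 in TLR9KO, and 5.63, 7.91, 5.94 and 6.34 in STAT3KO. WT was lowest and TLR9KO lay between, with no overlap of either knockout with WT or of STAT3KO with TLR9KO. Gins1 rose by 1.10 ± 0.17 in STAT3KO (limma adjusted p = 0.000612) and by 0.74 ± 0.17 in TLR9KO (0.00865), while STAT3KO against TLR9KO did not pass (0.129). After correction for GC content and length, the differences from WT were 0.57 (adjusted p = 0.0131) and 0.35 (0.139). Gins2 stood at 9.46, 9.4 and 7.35 RPKM in WT, 7.83, 11.8, 13.5 and 14.6 in TLR9KO, and 16.6, 19.03, 15.5 and 16.7 in STAT3KO. Each STAT3KO library was above all others, while TLR9KO overlapped WT through TLR9KO 1. Gins2 rose by 0.89 ± 0.17 against WT (limma adjusted p = 0.00209) and by 0.50 ± 0.16 against TLR9KO (0.044). The second call was lost without TLR9KO 1 or 2 (0.0569 and 0.0858) or any 1 of STAT3KO 1 to 4 (0.0832, 0.106, 0.0587 and 0.0853). It was also lost after correction for GC content and length (0.108), and with median-ratio scaling (0.0729), no filter (0.0755), the replicate block (0.0664) and the 2 groups alone (0.0575).

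The rest of the helicase was read from a wider list of replication genes, singled out after their values were seen. Gins3 (0.71 ± 0.147 RPKM in WT, 1.52 ± 0.21 in STAT3KO) and Gins4 (11.7 ± 0.357 and 17.4 ± 0.696) rose in STAT3KO against WT, by 0.56 ± 0.12 and 0.54 ± 0.08 (limma adjusted p = 0.00341 and 0.000575). After that correction the difference of Gins4 was 0.19 (adjusted p = 0.0533). All 4 GINS subunits thus rose in that comparison without the correction, where 29.2% of all genes rose. Since Gins3 and Gins4 were picked on their values, the count cannot serve as support. Gins3, with a WT mean under 1 RPKM, also reached the filter only through the knockout libraries. Cdc45 did not pass, at 6.11 ± 1.79 RPKM in STAT3KO against 6.61 ± 1.01 in WT. The difference between GINS and MCM subunits was not itself tested. Gmnn, which encodes geminin, the inhibitor that binds Cdt1, stood at 7.06 ± 1.57 RPKM in WT, 12.2 ± 3.15 in TLR9KO and 19.98 ± 3.58 in STAT3KO. It rose by 1.38 ± 0.21 in STAT3KO (limma adjusted p = 0.000439), and the rise in TLR9KO (0.70 ± 0.21, 0.0253) was lost with the correction (0.113).

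Pcna, the sliding clamp that holds DNA polymerases on the template, had the lowest p of the members in STAT3KO against WT. It stood at 79.1, 83.9 and 69.4 RPKM in WT, 95.6, 105, 112 and 104 in TLR9KO, and 172, 197, 131 and 155 in STAT3KO. The 3 groups did not overlap. In STAT3KO it rose by 1.06 ± 0.13 against WT (limma adjusted p = 0.000137) and by 0.63 ± 0.12 against TLR9KO (0.00469). Both calls held without any 1 library and in the other settings run, and after correction for GC content and length the difference from WT was 0.60 (0.00343). The rise in TLR9KO, 0.43 ± 0.13 (0.0286), was 0.02 after that correction (adjusted p = 0.926), and was lost without WT 1 (0.0705), WT 3 (0.114) or TLR9KO 2, 3 or 4 (0.0609, 0.0656 and 0.0557), and with median-ratio scaling (0.0567). Pcna and Tyms have processed pseudogenes in the mouse annotation, and how reads that fit several places were counted is not stated, so their values are uncertain in that respect.

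Fen1, the nuclease that trims the flaps of Okazaki fragments, and Uhrf1, which carries DNA methylation through replication, did not pass in any comparison. Group means in WT, TLR9KO and STAT3KO were 17.1, 19.3 and 19.8 RPKM for Fen1 and 18.5, 14.1 and 16.1 for Uhrf1.

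Of the 4 genes that supply deoxynucleotides, Tyms and Tk1 (thymidylate synthase and thymidine kinase) rose in STAT3KO against WT. That is 50%, against 29.2% of all genes, in a list of only 4. The ribonucleotide reductase genes Rrm1 and Rrm2 did not pass. Tyms stood at 2.42, 2.05 and 1.46 RPKM in WT, 1.93, 2.79, 2.63 and 2.44 in TLR9KO, and 3.05, 3.65, 2.79 and 3.38 in STAT3KO. It rose by 0.51 ± 0.13 (limma adjusted p = 0.00942), and every STAT3KO library was above every WT library. Tk1 stood at 15.7, 12.7 and 8.38 RPKM in WT, 7.49, 12.9, 13.6 and 14.3 in TLR9KO, and 18.4, 20.9, 16.8 and 18.8 in STAT3KO. Each STAT3KO library was above all others. Tk1 rose by 0.61 ± 0.22 against WT (limma adjusted p = 0.0451) and by 0.62 ± 0.21 against TLR9KO (0.0493). The first call was lost without WT 2 or 3 (0.07 and 0.194) or any 1 of STAT3KO 1 to 4 (0.0764, 0.0955, 0.0561 and 0.0817), and in 4 other settings (correction for GC content and length 0.146, median-ratio scaling 0.0895, no filter 0.0797, replicate block 0.0991). The second was lost without any 1 of the 8 libraries (0.0511 to 0.112), and in those 4 settings (0.152, 0.0706, 0.0866 and 0.08) and with pseudocount 0.1 (0.0522). Group means in WT, TLR9KO and STAT3KO were 25.8, 20.6 and 21.7 RPKM for Rrm1 and 18, 17.5 and 15.4 for Rrm2.

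**Figure D5:**
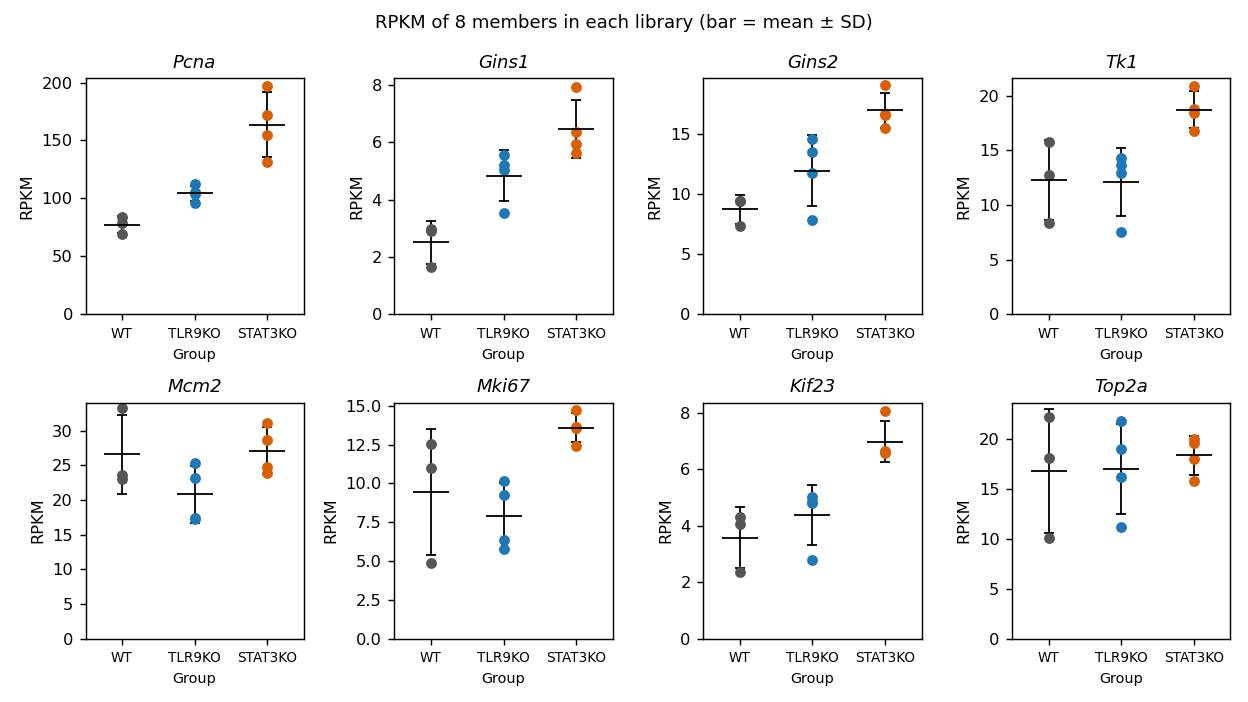
RPKM (vertical axes) of members named in the text in each library by group, with a point for each library and bars for group mean ± SD. Pcna and Gins1 show 3 groups without overlap, Gins2, Tk1 and Kif23 show STAT3KO above both other groups, and Mcm2 and Top2a overlap.

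Mki67, a coat protein of mitotic chromosomes used as a marker of cycling cells, stood at 10.99, 12.5 and 4.86 RPKM in WT, 5.75, 9.25, 10.2 and 6.33 in TLR9KO, and 13.6, 12.4, 13.6 and 14.7 in STAT3KO. STAT3KO was above every TLR9KO library and overlapped WT through WT 2. It rose by 0.75 ± 0.24 against TLR9KO (limma adjusted p = 0.0485), and the difference from WT, 0.57 ± 0.26, did not pass (0.105). The call was lost without TLR9KO 1, 2 or 4 (0.108, 0.064 and 0.122) or any 1 of STAT3KO 1 to 4 (0.0932, 0.0758, 0.0835 and 0.107), and in 5 of 7 other settings (replicate block 0.0841, no filter 0.0874, median-ratio scaling 0.064, correction for GC content and length 0.051, pseudocount 0.1 0.0525). Top2a, the topoisomerase that untangles chromosomes, stood at 18.1, 22.3 and 10.1 RPKM in WT, 11.2, 21.8, 19 and 16.2 in TLR9KO, and 18.04, 20.1, 15.8 and 19.6 in STAT3KO. It overlapped between all groups and passed in no comparison (differences of 0.05 to 0.18).

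Of the mitotic cyclins and their kinase, Cdk1 passed a test. Cdk1, the kinase that drives entry into mitosis, stood at 11.7, 8.59 and 5.97 RPKM in WT, 7.74, 11.2, 8.74 and 9.6 in TLR9KO, and 12.8, 16.1, 9.81 and 13.8 in STAT3KO. WT 1 was above STAT3KO 3, so the groups overlapped. The rise against WT was 0.56 ± 0.21 (limma adjusted p = 0.0458), and was lost without WT 2 (0.0853), WT 3 (0.198), STAT3KO 1 (0.0775), STAT3KO 2 (0.11) or STAT3KO 4 (0.095), and in 5 of 7 other settings (no filter 0.0806, median-ratio scaling 0.0902, correction for GC content and length 0.0555, array weights 0.0639, the 2 groups alone 0.0728). Its partners Ccna2, Ccnb1 and Ccnb2 did not pass in any comparison. Their group means in WT, TLR9KO and STAT3KO were 13.7, 13.6 and 13.2 RPKM for Ccna2, 11.3, 9.47 and 10.6 for Ccnb1, and 12.5, 11.8 and 14.02 for Ccnb2.

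Of the 8 genes of mitotic kinases, the spindle checkpoint and the chromosomal passenger complex, 0 passed in any of the 3 comparisons in limma. These are Aurka, Aurkb, Plk1 and Ttk (kinases), Bub1 and Bub1b (checkpoint), Cdc20 (an activator of the anaphase-promoting complex) and Birc5 (survivin). At an unadjusted p under 0.05 there were Birc5 and Ttk in STAT3KO against WT, Bub1 in TLR9KO against WT, and Birc5 and Cdc20 in STAT3KO against TLR9KO. Birc5 stood at 12.8 to 21 RPKM in WT, 11.4 to 22.04 in TLR9KO and 23.2 to 33.5 in STAT3KO. Its STAT3KO libraries were above all others, with differences of 0.53 ± 0.23 from WT (limma adjusted p = 0.0905) and 0.48 ± 0.22 from TLR9KO (0.133).

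Of 6 kinesin and spindle genes, Kif23 and Cenpe rose in STAT3KO against WT (33.3%, near the 29.2% of all genes). Kif23, a kinesin of the central spindle needed to complete cell division, stood at 4.07, 4.32 and 2.34 RPKM in WT, 2.77, 5.02, 4.83 and 4.81 in TLR9KO, and 6.65, 8.06, 6.57 and 6.59 in STAT3KO. Each STAT3KO library was above all others. Kif23 rose by 0.83 ± 0.19 against WT (limma adjusted p = 0.00553) and by 0.59 ± 0.18 against TLR9KO (0.0352). The second call was lost without TLR9KO 1 or 4 (0.0651 and 0.0568) or any 1 of STAT3KO 1 to 4 (0.0666, 0.0878, 0.0564 and 0.0659), and with no filter (0.0671) and median-ratio scaling (0.0524). Cenpe, the kinesin that moves chromosomes to the spindle equator, stood at 0.72, 0.81 and 0.26 RPKM in WT, 0.83, 1.49, 2.11 and 0.95 in TLR9KO, and 2.31, 1.59, 2.32 and 2.17 in STAT3KO. All WT libraries were below all others. With a WT mean of 0.597 RPKM, Cenpe reached the filter of 1 RPKM only through the knockout libraries. The rise in STAT3KO was 0.97 ± 0.19 (limma adjusted p = 0.00239), while the difference in TLR9KO did not pass (0.54 ± 0.19, 0.0556).

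The other spindle genes, Kif11, Kif20a, Tpx2 and Nusap1, did not pass in any comparison, with differences of 0.03 to 0.40 between STAT3KO and WT. Cenpf, a large centromere protein, stood at 0.35, 0.35 and 0.14 RPKM in WT, 0.37, 0.72, 0.76 and 0.42 in TLR9KO, and 1.24, 0.76, 1.06 and 1.08 in STAT3KO. Each STAT3KO library was at or above every other. Tested without the filter on low values, Cenpf rose by 0.67 ± 0.11 in STAT3KO against WT (limma adjusted p = 0.00232) and by 0.38 ± 0.11 against TLR9KO (0.0426).

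GC content moved with the differences of TLR9KO from WT. Spearman's rho between a gene's GC content and its log2 difference was -0.53 over the 39 members and -0.55 over 10426 genes, as a description across genes, which share libraries and are not independent. For STAT3KO minus WT it was -0.19 and -0.23, and for STAT3KO minus TLR9KO 0.26 and 0.32. With transcript length, rho over all genes was -0.33 for STAT3KO minus WT, -0.19 for TLR9KO minus WT and -0.27 for STAT3KO minus TLR9KO. In the same order it was -0.29, -0.40 and -0.20 over the replication genes and 0.32, 0.26 and 0.11 over the mitotic genes. The median GC content was 52.5% for the tested replication genes and 47% for the mitotic genes, against 50.2% for all genes. Pcna (45.3%) and Gins1 (46.9%) lie below the replication median. They are also short, at 1518 and 1087 bases against a replication median of 3031. GC content and length were corrected together, and the part of either in the results was not tested beyond that correction.

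Other genes of the same pathways were counted from wider lists. Of 58 further replication genes, 24 rose and 1 fell in STAT3KO against WT (median 0.23, against 0.09 for all genes), 18 rose and 3 fell in TLR9KO against WT (0.15, against 0.04), and 7 rose and 3 fell in STAT3KO against TLR9KO (0.15, against 0.06). The shares that rose were 41.4%, 31% and 12.1%, against 29.2%, 20% and 13.4% of all genes. Pole3, a subunit of the leading strand polymerase, stood at 13.2 ± 0.911 RPKM in WT and 24.3 ± 1.97 in STAT3KO (0.83 ± 0.09, limma adjusted p = 5.01e-05). Orc6, of the origin recognition complex, rose by 0.88 ± 0.13 in STAT3KO (limma adjusted p = 0.000456). Orc4 of the same complex rose by 0.92 ± 0.10 in TLR9KO (0.000248) and by 0.26 after correction for GC content and length (0.0279). Dnmt1, the maintenance DNA methyltransferase, was higher in STAT3KO than in TLR9KO, at 30.4 ± 1.28 against 20.9 ± 1.63 RPKM (0.52 ± 0.07, limma adjusted p = 0.000925).

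Of 67 further mitosis genes, 14 rose and 3 fell in STAT3KO against WT (median 0.22), 11 rose and 5 fell in TLR9KO against WT (-0.01), and Zwint alone rose in STAT3KO against TLR9KO (0.21). The shares that rose were 20.9%, 16.4% and 1.49%, each below the 29.2%, 20% and 13.4% of all genes. Smc4, a condensin subunit, stood at 1.82 ± 1.06 RPKM in WT, 8.05 ± 2.19 in TLR9KO and 7.14 ± 1.31 in STAT3KO. It rose in both knockouts, by 1.72 ± 0.25 (limma adjusted p = 0.00101) and 1.58 ± 0.25 (0.00065). Hmmr, a spindle assembly protein, also rose in both, by 0.56 ± 0.14 (0.0115) and 0.88 ± 0.14 (0.000616), and the call in TLR9KO was lost without WT 3 (0.054) and after correction for GC content and length (0.309). The kinetochore genes Zwint and Ndc80 rose in STAT3KO against WT, by 0.66 ± 0.07 (limma adjusted p = 7.07e-05) and 1.06 ± 0.18 (0.00106).

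Of 23 inhibitors and pocket proteins, 6 rose and 3 fell in STAT3KO against WT (median 0.21), 7 rose and 1 fell in TLR9KO against WT (0.14), and 3 rose and 5 fell in STAT3KO against TLR9KO (-0.11). The shares that rose were 26.1%, 30.4% and 13%, against 29.2%, 20% and 13.4% of all genes, and those that fell 13%, 4.35% and 21.7%, against 14.8%, 10.6% and 9.46%. Cdkn1a, the p21 inhibitor, stood at 453, 501 and 534 RPKM in WT, 380.17, 441, 336 and 374 in TLR9KO, and 329.57, 326, 319 and 328 in STAT3KO. All WT libraries were above all others. It fell by 0.60 ± 0.10 in STAT3KO (limma adjusted p = 0.000952) and by 0.38 ± 0.10 in TLR9KO (0.0178), the second call being lost without WT 3 (0.0778), with the 2 groups alone (0.0602) and after correction for GC content and length (0.06). Btg2, an antiproliferative p53 target, stood at 98.9 ± 28.8 RPKM in WT and 29.5 ± 7.74 in STAT3KO (-1.70 ± 0.23, 0.000278). Cdkn1c, the p57 inhibitor, stood at 0.813 ± 0.208 and 5.88 ± 2.87 RPKM (1.83 ± 0.27, limma adjusted p = 0.00042). Gadd45a, a gene of the DNA damage response, rose by 1.02 ± 0.17 (0.000827). Rb1, the retinoblastoma protein, and Cdkn1b, the p27 inhibitor, were lower in STAT3KO than in TLR9KO (-0.77 ± 0.13, 0.0027, and -0.63 ± 0.11, 0.003).

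Of 15 regulators of G1, 6 rose and 2 fell in STAT3KO against WT (median 0.12), 4 rose and 2 fell in TLR9KO against WT (-0.03), and 2 rose and 1 fell in STAT3KO against TLR9KO (0.09). The shares that rose were 40%, 26.7% and 13.3%, against 29.2%, 20% and 13.4% of all genes. Myc, the growth-promoting transcription factor, stood at 14.4, 12.5 and 13.2 RPKM in WT, 12.9, 11.4, 8.15 and 13.2 in TLR9KO, and 24.01, 29.5, 22.7 and 21.2 in STAT3KO. Every STAT3KO library was above every other, and Myc rose by 0.81 ± 0.16 against WT (limma adjusted p = 0.00186) and 1.04 ± 0.14 against TLR9KO (0.00094). Of the cyclin D genes, Ccnd3 fell in both knockouts, by 0.76 ± 0.15 in STAT3KO (limma adjusted p = 0.00198) and 0.67 ± 0.15 in TLR9KO (0.00681), and Ccnd1 was higher in STAT3KO than in TLR9KO, by 1.14 ± 0.25 (0.00931). Tfdp1, the partner of E2F proteins, rose by 0.50 ± 0.09 in STAT3KO (limma adjusted p = 0.00129), and Mnat1, of the kinase complex that activates cyclin-dependent kinases, by 0.77 ± 0.09 (0.000104).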

How the data were processed

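The deposited files give 1 RPKM value per gene symbol and library, per the file headers, and 1 of the 11 headers names no unit. Per the submitters' processing notes, the authors used CASAVA 1.7, TopHat 1.3.1, Bowtie 0.12.7 and Partek, with build mm9. The sources used here name neither the annotation nor the read total behind RPKM. RPKM values are not counts, so no count model was fitted.

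Values were taken as log2(RPKM + 1), which understates changes of low genes, for the 10557 genes whose mean over the libraries reached 1 RPKM. A model of 3 group means was fitted to the 11 libraries with limma 3.58.1 (eBayes with trend) in R 4.3.3. It was tested on simulated data with independent noise per gene, whereas the members moved together within a library. Of simulated 2-fold changes 86% to 87.5% were recovered. False calls were 3.31% to 6.49% of calls, the highest in TLR9KO minus WT. Tests were two-sided. Errors are SD for RPKM and moderated SE for log2 differences. Alternatives were a pseudocount of 0.1, no filter, median-ratio scaling, a spline correction for GC content and length (GENCODE M21), a replicate block, array weights, the 2 groups alone, and each library left out. Depth was read from whole-read steps of 27 to 48 microRNA genes per library, 75.0% to 97.1% of them within 0.15 read.

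The rule for the members uses no measured value, but the members and the gene lists were chosen with earlier results of these data known. Values in every library are given for members past the threshold in at least 1 comparison with a group mean of 1 RPKM or more, up to 8 of each class, and for Mki67, Top2a, Pcna and Mcm2. Of each further list, up to 4 genes with the smallest p per comparison could be named. Promoter letters were searched on both strands and, as an alternative, on the strand of the gene alone. Promoter coordinates are GRCm38.p6 and were not joined to mm9.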

Additional observations from a re-analysis of the deposited data

Results flagged for a closer look

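In groups of 4 libraries, 88 sets of values were checked for 1 library far from the rest, of which chance alone flags about 1 in 20. TLR9KO replicate 1 lay far below the other 3 TLR9KO libraries for 6 mitotic genes: Ccnb2 at 7.43 RPKM (next 12.93), Aurkb at 5.91 (next 11.73), Birc5 at 11.37 (next 20.4), Bub1b at 5.47 (next 9.56), Kif20a at 4.69 (next 7.87) and Kif23 at 2.77 (next 4.81). STAT3KO replicate 2 lay far above the other 3 STAT3KO libraries for 3 of the same genes: Aurkb at 16.53 RPKM (next 11.07), Birc5 at 33.47 (next 23.83) and Kif23 at 8.06 (next 6.65). The genes move together within a library, so these flags are not independent. WT has 3 libraries and was not checked.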

How the results depend on the processing

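In STAT3KO against WT 6 to 13 members were called over all settings. In TLR9KO against WT the 2 members became 0 with the GC and length correction, 6 with array weights and 1 to 5 with 1 library left out. In STAT3KO against TLR9KO the 7 members became 4 with pseudocount 0.1, 3 with no filter, 2 with median-ratio scaling, 3 with the GC and length correction, 3 with the replicate block and 1 to 6 with 1 library left out. Over all genes, TLR9KO against WT gave 3229 calls, 1566 with the GC and length correction and 1985 (without WT 1) to 3588 with 1 library left out. STAT3KO against TLR9KO gave 2409 calls, 3807 with array weights and 1577 (without TLR9KO 4) to 2377 with 1 library left out. Differences of the mean levels shifted between settings by less than the spread between replicates. In TLR9KO against WT they changed sign. The replication difference went from -0.051 to 0.062 without TLR9KO 1, and the mitotic difference from 0.019 to -0.19 without WT 3.

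Of the genes followed through every setting, those that changed sign were past no threshold in that comparison, except 3 further genes, and the cause was not tested. Other members that passed no test also changed sign with the GC and length correction. Examples are Ccnb2 in STAT3KO against WT (0.19 to -0.15) and Ttk in TLR9KO against WT (0.17 to -0.20). With 1 library left out, STAT3KO against WT ranged from -0.016 to 0.19 for Mcm6, -0.13 to 0.41 for Top2a and -0.053 to 0.20 for Mcm2. TLR9KO against WT ranged from -0.25 to 0.18 for Tk1, -0.55 to 0.0496 for Mki67, -0.11 to 0.33 for Cdk1 and -0.26 to 0.27 for Top2a, and STAT3KO against TLR9KO from -0.042 to 0.26 for Top2a. Mcm2 in STAT3KO against WT was -0.074 with median-ratio scaling, -0.0044 with the replicate block and -0.090 with array weights. In TLR9KO against WT, Tk1 was 0.041 with array weights, Top2a was -0.0061 with median-ratio scaling, and with the GC and length correction Top2a was -0.18, Cdt1 0.11, Rpa3 -0.15, Mnat1 -0.012 and Cdk7 -0.018. The last 3 had passed the test without it.

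The labels do not say whether equal replicate numbers pair libraries. Of 10 same-numbered pairs 4 had correlated deviations above 0.1 (-0.29 to 0.49), and 2 of 11 libraries correlated best with their own number. The 4 were all pairs of replicate 1, and TLR9KO 3 with STAT3KO 3. Deviations from a group mean cancel out within the group, so this check cannot settle pairing. With the replicate block 7, 2 and 3 members were called, in the order of comparisons above, against 9, 2 and 7. In Cenpf and Ccne2, the lowest members, the library with the fewest reads had about 58.7 and 32.8 reads, estimated from the depth.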
